A study of Homo sapiens with 10 samples.

Results

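A group of 5 members of the carcinoembryonic antigen (CEA) family of cell adhesion molecules, *CEACAM1*, *CEACAM5*, *CEACAM6*, *CEACAM7* and *CEACAM19*, was followed in sorted cells of human thyroid organoids, as 5 of the 28265 genes listed in the count tables. They were taken by gene symbol and had been selected on the changes of their counts between days in these same libraries, with the wide differences between the 2 libraries of a day in *CEACAM5* already known. Their levels and fold changes are therefore given as a description with no test, and tests are given for other genes only. The organoids were grown from a selected clone of the human embryonic stem cell line ESIBIe003-A-6 (derived from HES3), in which 1 *NKX2-1* allele carries a GFP reporter and a doxycycline-inducible lentiviral transgene expresses *NKX2-1* and *PAX8*. All cells shared this genotype, activin A treatment and a doxycycline pulse followed by a week in basal medium. RNA from sorted NKX2-1GFP+ cells, each library a pool of wells, was sequenced on day 16 (before cAMP treatment by the study's schedule, although the label reads c-AMP), on days 23 and 31 (8-br-cAMP), on day 38 (recombinant human TSH with dexamethasone) and on day 45 (TSH with the TGFβ receptor inhibitor SB431542, dexamethasone being named in the methods but not in the label). The treatments of days 31 and 38 were taken from the labels. The paper dates the switch to TSH just before day 31, and the start of SB431542 at or just before day 38. Each day had 2 libraries, with total counts from 7247268 to 10333933. Day and medium changed together and cannot be told apart, and the GFP gate enriched NKX2-1-expressing cells without separating thyroid cells from other cells that express this factor.

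The CEA family belongs to the immunoglobulin superfamily. Its members are glycoproteins with an N-terminal variable-like domain, through which they bind the same or another CEACAM on neighbouring cells. CEACAM1 spans the membrane and, in its long-tailed form, carries inhibitory tyrosine motifs that recruit the phosphatases SHP-1 and SHP-2. CEACAM5 (the classical CEA, a serum tumour marker), CEACAM6 and CEACAM7 are held by a glycosylphosphatidylinositol (GPI) anchor and are best known from the apical surface of the colon, with CEACAM5 and CEACAM6 also made in other mucosal epithelia, including that of the airway. CEACAM19 is a less studied transmembrane member. In the thyroid, CEA is known clinically as a marker of medullary carcinoma, which arises from C cells and not from follicular cells.

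All 5 genes lie on the long arm of chromosome 19 (GRCh38, GENCODE 44). *CEACAM7* (chr19:41673303-41706976, minus strand) and *CEACAM5* (chr19:41708585-41730433, plus strand) are neighbours on opposite strands, followed by *CEACAM6* (chr19:41750977-41772211, plus strand). *CEACAM1* (chr19:42507304-42561234, minus strand) and *CEACAM19* (chr19:44662278-44684359, plus strand) lie farther along. RefSeq (GRCh38.p14) promoter windows, 250 bases before to 50 bases after the annotated start, were found for 4 of the members, and each matched the reference genome. They are shown because *CEACAM5*, *CEACAM6* and *CEACAM7* appeared in the organoids from near 0, whereas *CEACAM1* was measured from day 16. Each is written 5′ to 3′ on the strand of its gene, and the capitals mark the E-box CACGTG, the palindromic site bound by USF and MYC-type factors. The windows are chr19:41708376-41708675 (plus strand) for *CEACAM5*, chr19:41755280-41755579 (plus) for *CEACAM6*, chr19:41688221-41688520 (minus) for *CEACAM7* and chr19:42528432-42528731 (minus) for *CEACAM1*.
CEACAM5: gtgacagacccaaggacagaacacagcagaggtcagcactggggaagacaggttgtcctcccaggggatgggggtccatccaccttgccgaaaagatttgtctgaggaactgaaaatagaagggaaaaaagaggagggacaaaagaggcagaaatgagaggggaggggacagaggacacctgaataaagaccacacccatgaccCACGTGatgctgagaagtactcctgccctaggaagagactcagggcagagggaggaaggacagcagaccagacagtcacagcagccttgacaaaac
CEACAM6: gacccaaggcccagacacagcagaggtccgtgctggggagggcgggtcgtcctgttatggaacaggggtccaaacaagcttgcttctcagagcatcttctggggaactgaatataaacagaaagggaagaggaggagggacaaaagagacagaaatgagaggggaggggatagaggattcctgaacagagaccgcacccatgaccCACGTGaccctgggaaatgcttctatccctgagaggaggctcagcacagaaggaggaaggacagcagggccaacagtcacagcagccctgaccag
CEACAM7: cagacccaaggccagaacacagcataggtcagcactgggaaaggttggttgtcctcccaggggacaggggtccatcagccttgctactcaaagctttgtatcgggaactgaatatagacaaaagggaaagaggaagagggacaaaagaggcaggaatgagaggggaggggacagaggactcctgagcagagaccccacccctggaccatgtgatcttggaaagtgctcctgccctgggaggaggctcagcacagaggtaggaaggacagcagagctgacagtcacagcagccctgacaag
CEACAM1: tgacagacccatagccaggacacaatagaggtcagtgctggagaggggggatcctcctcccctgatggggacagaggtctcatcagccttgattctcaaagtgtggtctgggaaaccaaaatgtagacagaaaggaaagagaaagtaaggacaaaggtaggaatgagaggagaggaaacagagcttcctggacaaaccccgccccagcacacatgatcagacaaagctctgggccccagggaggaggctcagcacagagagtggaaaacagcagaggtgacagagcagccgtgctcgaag

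The windows of *CEACAM5* and *CEACAM7* shared 84.7% of their aligned bases, those of *CEACAM6* and *CEACAM7* 81.5%, and those of *CEACAM5* and *CEACAM6* 78.8%, while *CEACAM1* shared between 72.0% and 77.1% with these 3. Windows of CEACAM genes that stayed low shared between 57.7% (*CEACAM20* with *CEACAM6*) and 83.1% (*CEACAM3* with *CEACAM6*) with these 3. High likeness was thus not particular to the genes that appeared later. The E-box began at position -46 from the start in *CEACAM5* and at -45 in *CEACAM6*. It was in no other CEACAM window read here, and 7.2% of 34796 promoter windows of the same length held it. The GC box GGGCGG, searched on both strands, was in the windows of *CEACAM1* and *CEACAM6*, in those of *CEACAM8*, *CEACAM18* and *CEACAM21*, and in 44.9% of all windows. The glucocorticoid receptor core motif AGAACA was in those of *CEACAM5* (at -233), *CEACAM7* (at -237) and *CEACAM21* (at -229), and in 14.8% of all windows. The TATA box TATAAA was in the windows of *CEACAM6* (at -139) and *CEACAM18* (at -149) and in 11.6% of all. The cAMP response element TGACGTCA was in none of the CEACAM windows read here and in 1.84% of all. These are matches of letters and say nothing on occupancy.

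*CEACAM5* was close to absent at first and was later measured in all libraries, with large gaps between the libraries of one day. It had 1 and 0 counts on day 16 and 5 and 9 counts on day 23, which are 0.554 and 1.03 in counts-per-million (CPM, scaled by the trimmed mean of M values). On day 31 its level was 51.9 CPM in one library and 7.80 CPM in the other, on day 38 it was 95.2 and 9.08 CPM, and on day 45 it was 22.1 and 180.2 CPM. Both libraries of each of the 3 later days lay above both libraries of days 16 and 23, but the 3 later days overlapped each other. In bulk RNA, more cells of a CEACAM-expressing type and more RNA per cell cannot be told apart. The day means were 29.8 ± 31.2, 52.1 ± 60.9 and 101.1 ± 111.8 CPM (SD, n = 2), so that the SD was as large as the mean on each of these days. Day 31 was 37.7-fold above day 23, a fitted log2 fold change of 5.22 (SE 0.94), and the ratio was 9.85-fold without replicate 1 of day 31 and 65.6-fold without replicate 2. Day 45 was 1798-fold above day 16. This ratio was formed from counts pooled over the libraries of a day and scaled by library size, whereas the 37.7-fold is a ratio of mean CPM. The pooled ratio rests on the single day 16 count and has an exact 95% counting interval from 322.3 to 71050. It was 353.2-fold without replicate 2 of day 45 and 2885-fold without replicate 1. Without replicate 2 of day 16, which had no count, it was 885.7-fold, and without replicate 1, which held the count, day 45 was at least 273.8-fold above a level of 3 counts. The changes from day 31 to day 38 (log2 0.80, SE 0.64) and from day 38 to day 45 (0.96, SE 0.63) were smaller than the gap between libraries. Without replicate 1 of day 38 the first of them was -1.72, and without replicate 2 of day 45 the second was -1.24.

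*CEACAM6*, a GPI-anchored member with a single pair of constant-type domains after the variable one, was clearly measured from day 23 and had closer libraries from day 31 on. It had 1 and 0 counts on day 16 and 24 and 55 counts on day 23, or 2.66 and 6.29 CPM. Its level was 74.5 and 42.7 CPM on day 31, 51.6 and 35.1 CPM on day 38, and 45.3 and 131.7 CPM on day 45. Day 23 lay above day 16 in both libraries, and days 31, 38 and 45 lay above day 23 and overlapped each other. Day 23 was 71.2-fold above day 16 on the single day 16 count (exact 95% counting interval 12.4 to 2846), 42.6-fold without replicate 2 of day 23 and 35.1-fold without replicate 2 of day 16. Without replicate 1 of day 16, which held the count, it was at least 12.1-fold above a level of 3 counts. Day 31 was 13.1-fold above day 23 (log2 3.71, SE 0.40), or 22.0-fold without replicate 2 of day 23. The mean was 58.6 ± 22.5 CPM on day 31, 43.3 ± 11.7 on day 38 and 88.5 ± 61.1 on day 45 (SD, n = 2), and the change from day 38 to day 45 (log2 1.03, SE 0.33) was 0.063 without replicate 2 of day 45.

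*CEACAM7*, whose product is known from the surface of colonic and pancreatic duct epithelium, was the last to be seen. None of the 4 libraries of days 16 and 23 had a count, which allows a level of up to 0.38 CPM on day 16 and 0.34 CPM on day 23 (3 counts). It had 8 and 3 counts on day 31, 17 and 4 on day 38, and 28 and 140 on day 45. Its level was 4.07 and 15.3 CPM on day 45, above both libraries of every earlier day. Day 45 was 8.41-fold above day 38 (log2 3.05, SE 1.15) and at least 25.8-fold above day 16, with the day 16 level set to 3 counts per library. The latter bound was 10.8-fold without replicate 2 of day 45 and 40.8-fold without replicate 1. The log2 change from day 38 ranged from 1.81 to 4.34 as single libraries were left out.

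*CEACAM1*, the inhibitory receptor of the family, was present before cAMP was given, with levels on day 16 of 7.10 and 7.39 CPM. Later it stood at 23.9 and 17.2 CPM on day 23, 34.2 and 22.1 CPM on day 31, 23.3 and 5.12 CPM on day 38, and 22.1 and 48.0 CPM on day 45. Both libraries were above day 16 on days 23, 31 and 45, whereas replicate 2 of day 38 was below both day 16 libraries. Day 23 was 2.84-fold above day 16 (SE 0.44 on the log2 scale) and day 45 was 4.83-fold above it (log2 2.28, SE 0.44), or 3.05-fold without replicate 2 of day 45. The mean was lower on day 38 (14.2 ± 12.9 CPM) than on day 31 (28.2 ± 8.54 CPM), with overlapping libraries.

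*CEACAM19* followed another course. It was 6.09 and 8.62 CPM on day 16, 3.44 and 0.686 CPM on day 23, 7.06 and 7.45 CPM on day 31, 8.64 and 6.64 CPM on day 38, and 17.3 and 8.08 CPM on day 45. Day 23 lay below all other libraries of the series, 3.57-fold below day 16 (log2 -1.82, SE 0.62), and the day 31 level was again 3.52-fold above it, or 10.6-fold without replicate 1 of day 23 and 2.11-fold without replicate 2. Days 16, 31 and 38 had almost the same mean, between 7.26 and 7.64 CPM. Replicate 1 of day 45 was the highest library. Without replicate 1 of day 23 the change from day 16 was -3.40, and without replicate 2 it was -1.10.

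**Figure D1:**
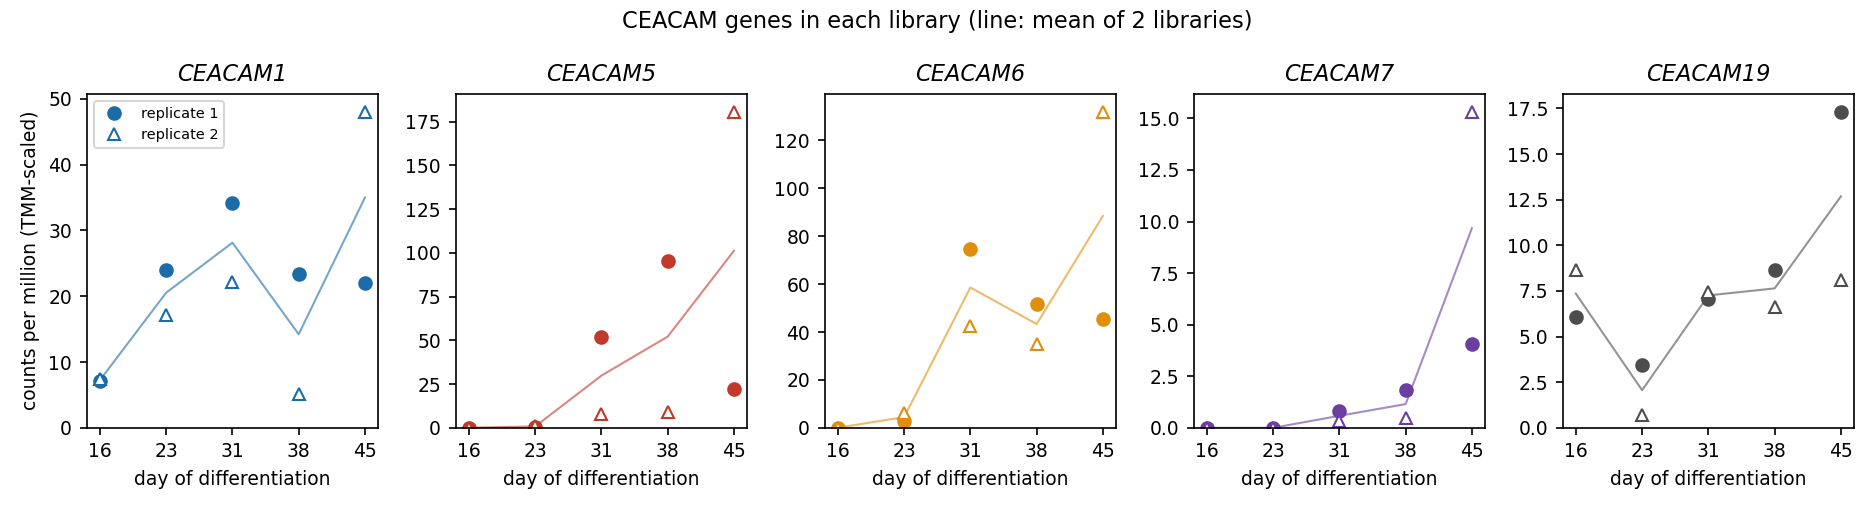
Level of each CEACAM gene in CPM (y axis, linear, a separate scale for each gene) on days 16, 23, 31, 38 and 45 (x axis). Filled circles are replicate 1, open triangles replicate 2 and the line joins the means of 2 libraries; the 2 libraries of *CEACAM5* stand 44.1 to 158.1 CPM apart from day 31 on, and of these 3 days replicate 2 is the higher one on day 45 only.

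Set side by side, 3 of the 5 genes had both libraries higher on day 23 than on day 16, 1 had both lower and 1 overlapped. Of 21014 genes tested, 22.8% had both libraries higher in this comparison and 25.6% both lower. From day 23 to day 31, 4 were higher and 1 overlapped (20.4% of all genes higher, 18.9% lower). All 5 overlapped from day 31 to day 38, where 30.2% of genes were higher and 26.9% lower. From day 38 to day 45 *CEACAM7* was higher and 4 overlapped (25.3% of all genes higher, 29.5% lower). Day 45 was above day 16 in 4 and overlapped in *CEACAM19* (29% of all genes higher, 28.8% lower). Among all genes, the edgeR quasi-likelihood test (Benjamini-Hochberg adjusted p under 0.05) called 10.9% in the first of these comparisons, 2.25% in the second, 15% in the third, 11.2% in the fourth and 24.6% between days 16 and 45. The genes were picked for such changes, so nothing is read from these shares.

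The genes differ in exon length, from 2653 bases in *CEACAM7* to 5527 in *CEACAM1*, so levels were compared with each other per kilobase of exon. On day 16 *CEACAM19* (1.42 ± 0.35 CPM per kilobase; SD, n = 2) and *CEACAM1* (1.31 ± 0.04) had about the same level and the other 3 were at or near 0. On day 23 *CEACAM1* (3.72 ± 0.87) was above *CEACAM6* (1.51 ± 0.87) in both libraries, and *CEACAM19* and *CEACAM5* came below. On day 31 *CEACAM6* led at 19.8 ± 7.61, with *CEACAM5* (7.49 ± 7.82) and *CEACAM1* (5.09 ± 1.55) not separated by their spread, and on day 38 *CEACAM6* (14.7 ± 3.97) and *CEACAM5* (13.1 ± 15.3) had about the same mean. On day 45 the order of the means was *CEACAM6* (29.9 ± 20.7), *CEACAM5* (25.4 ± 28.1), *CEACAM1* (6.33 ± 3.31), *CEACAM7* (3.65 ± 2.99) and *CEACAM19* (2.45 ± 1.26). No neighbours in this order differed by more than their spread between libraries. Within both libraries, however, *CEACAM5* (5.54 and 45.2) was above *CEACAM1* (3.99 and 8.675), and *CEACAM1* was above *CEACAM7* (1.53 and 5.76). The other neighbours changed order between the libraries.

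The make-up of the family signal changed with time. *CEACAM1* and *CEACAM19* together held nearly all of the length-scaled signal of the 5 genes on day 16, with *CEACAM1* at 50.7% and 44.5%. *CEACAM6* alone was 54.7% and 65.7% on day 31. *CEACAM5* was 28.2% and 8.90% on day 31, 49.8% and 13.8% on day 38, and 18.6% and 42.7% on day 45. The ratio of *CEACAM5* to *CEACAM6* per kilobase was thus 0.517 and 0.135 on day 31, 1.37 and 0.192 on day 38, and 0.361 and 1.02 on day 45. Both genes were measured in every library from day 31 on, but not in a fixed ratio. The summed level was 2.54 CPM per kilobase in replicate 1 of day 16 and reached 105.8 in replicate 2 of day 45.

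**Figure D2:**
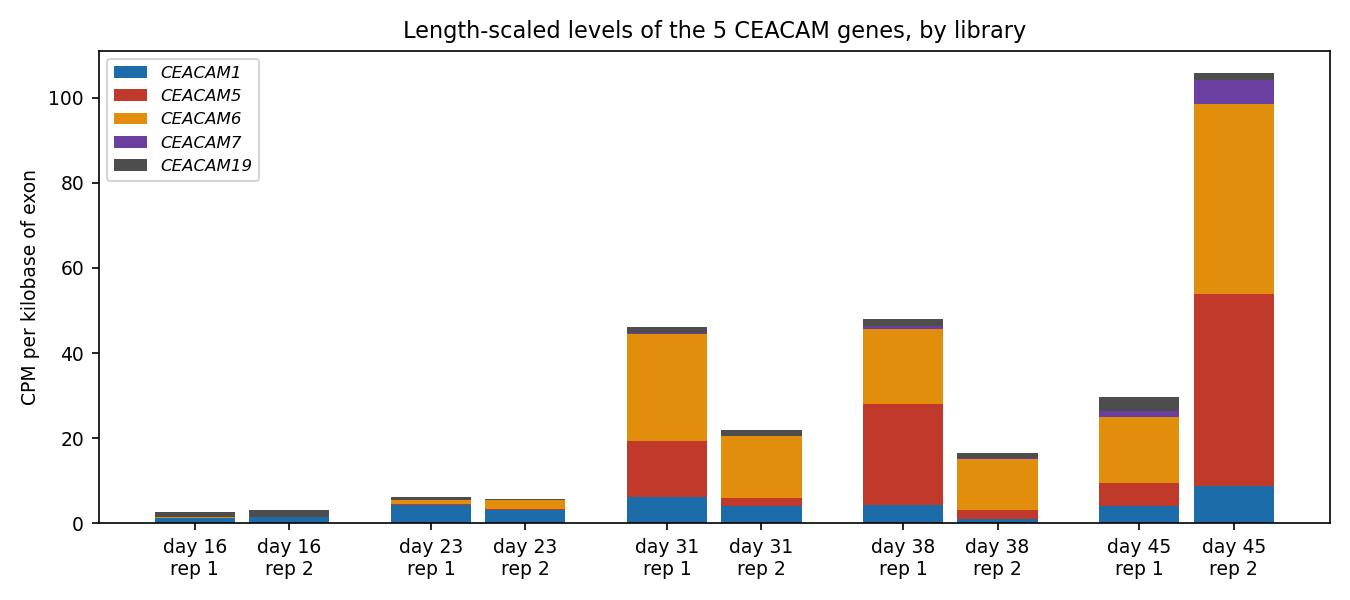
Stacked length-scaled levels of the 5 CEACAM genes (y axis, CPM per kilobase of exon) in each of the 10 libraries (x axis, day and replicate). *CEACAM6* and *CEACAM5* make up most of each bar from day 31 on, and the total differs between the 2 libraries of a day, with 29.7 against 105.8 on day 45.

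The gap between the libraries of one day was then measured as the difference in log2 CPM. For *CEACAM5* it was 2.70 on day 31, 3.36 on day 38 and 3.02 on day 45, or 6.66-fold, 10.5-fold and 8.17-fold, against a median gap of 0.31, 0.23 and 0.32 over 17387 genes with at least 1 CPM. *CEACAM6* had smaller gaps of 0.80, 0.56 and 1.54, and *CEACAM1* reached 2.14 on day 38. Replicate 1 was the higher library on days 31 and 38 and replicate 2 on day 45 for *CEACAM1*, *CEACAM5*, *CEACAM6* and *CEACAM7* alike. *CEACAM19* went the other way on days 31 and 45.

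**Figure D3:**
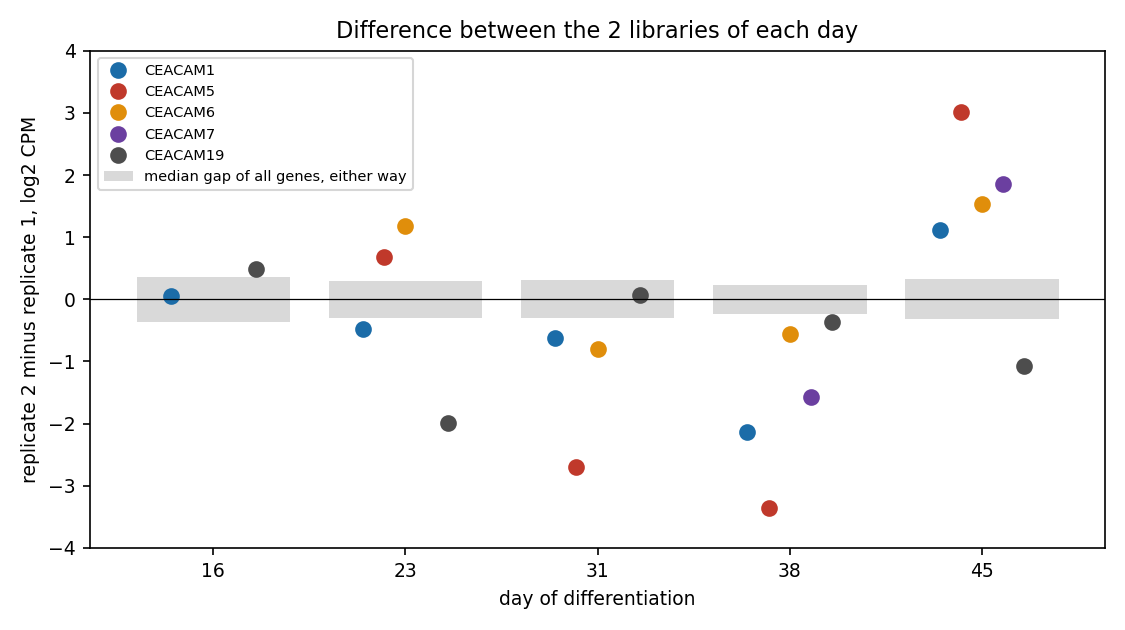
Difference between the 2 libraries of each day (y axis, replicate 2 minus replicate 1 in log2 CPM, prior count 2) for the CEACAM genes with more than 3 counts in both libraries, by day (x axis); grey bands span the median gap of 17387 genes in either direction. *CEACAM5* lies at -2.70 and -3.36 on days 31 and 38 and at 3.02 on day 45.

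Markers of other cell types were read in the same libraries. NKX2-1 is known from thyroid, lung and forebrain cells, and a sort on NKX2-1GFP would be expected to remove intestinal, gastric, leukocyte, fibroblast, cardiovascular and trophoblast cells. The summed level of the intestinal markers (*CDH17*, *VIL1*, *LGALS4*, *MUC2*, *FABP1* and *GUCA2A*) had the same higher library as *CEACAM5* on all 3 days, but not every gene of the list did. The sum was 70.0 and 61.9 CPM on day 31, 40.2 and 16.9 on day 38, and 83.6 and 143.7 on day 45. *CDH17* (the liver-intestine cadherin), the most abundant of them in 5 of these 6 libraries, was 27.4 and 20.7, 21.7 and 7.45, and 37.5 and 86.7 CPM. *FABP1*, the liver and intestinal fatty acid binding protein, was 13.2 and 4.42, 4.43 and 0, and 5.95 and 20.4 CPM, whereas *GUCA2A* had no count in 3 of these 6 libraries and stayed under 1 CPM in the others. *MUC2*, the intestinal goblet mucin, had the opposite order to *CEACAM5* on all 3 days, with 3.69 and 4.19, 0.972 and 2.10, and 11.3 and 8.08 CPM. *VIL1* was higher in replicate 2 on day 31 (24.1 and 31.8 CPM) and *LGALS4*, which codes for galectin-4, in replicate 1 on day 45 (9.15 and 6.77 CPM). Between days, 4 of the 5 tested intestinal markers rose from day 23 to day 31, a step in which 1.58% of all genes tested were called higher and 0.666% lower, and none fell. *CDH17* rose by 5.13 on the log2 scale (SE 0.68, adjusted p = 5.45e-06), a call that DESeq2 did not make. This change was 4.16 without replicate 2 of day 23, which had no *CDH17* count, and 10.7 without replicate 1. *VIL1*, which codes for the brush border protein villin, rose by 1.68 (SE 0.38, adjusted p = 0.0091), a call lost without either library of day 23 or replicate 2 of day 31. *MUC2* and *FABP1* were the other 2, and *FABP1* was not called without replicate 1 of day 23 or of day 31, nor by DESeq2. *CDX2*, the defining intestinal transcription factor, was between 0.756 and 6.40 CPM in the 10 libraries and was not called in any comparison. The rise in this step was not limited to the intestinal list. Of the goblet markers 1 of 5 rose (*AGR2*, by 3.84 on the log2 scale, SE 0.28, adjusted p = 3.78e-11), of the tested distal lung markers 2 of 4 (*ABCA3* and *SFTPB*, the latter by 1.68, SE 0.16, adjusted p = 1.24e-08) and of the airway basal markers 1 of 4 (*KRT5*, adjusted p = 2.58e-06), and none fell. The calls of *AGR2*, *SFTPB* and *KRT5* were kept under all 17 alternatives.

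The summed level of goblet cell markers was 9.53 and 16.1 CPM on day 23 and was higher in replicate 1 on all 3 later days (160.6 and 141.0, 87.6 and 63.5, and 156.5 and 132.5 CPM), led by *AGR2* or *MUC5B*. On day 45 this order came from the mucin gene *MUC5B* (96.5 and 47.4 CPM). *AGR2*, which codes for a disulphide isomerase of secretory cells, had the order of *CEACAM5* on all 3 days, with 156.0 and 135.0, 37.6 and 26.9, and 51.1 and 75.9 CPM. Distal lung markers, led by *SFTPB* and *ABCA3*, were 213.6 and 204.5 CPM on day 23, 611.4 and 626.0 CPM on day 31, 134.3 and 131.7 on day 38, and 151.1 and 162.2 on day 45. *SFTPC*, which defines the surfactant-making alveolar cells, had a single count over all 10 libraries. Airway basal markers were 18.3 and 29.7, 29.0 and 26.2, and 50.8 and 42.8 CPM. *NKX2-1*, the gene behind the sort, was 90.0 and 83.9 CPM on day 16 and 58.1 and 66.7 on day 45. Thyroid markers were 1637 and 1582 CPM on day 31, 7516 and 6732 on day 38, and 9541 and 9055 on day 45, when *TG*, the thyroglobulin gene, alone was 7964 and 7525 CPM. On days 31, 38 and 45 the libraries of a day thus differed by at most 1.62-fold in the goblet, distal lung, airway basal and thyroid sums, and by 1.13-fold, 2.38-fold and 1.72-fold in the intestinal sum, which on day 31 was less than in the airway basal or goblet sum. Whether intestinal-type cells carried the CEACAM signal was not tested. Of the leukocyte markers, *FCGR3B* had no count in any library and *PTPRC* (CD45) was at most 0.698 CPM from day 23 on, and *CSF3R* and *CD68* made up most of the list's signal. The leukocyte sum was 31.95 and 11.7 CPM on day 16, between 8.31 and 36.7 CPM on days 23 to 38, and 68.5 and 51.8 CPM on day 45. *CD68* fell from day 16 to day 23 (log2 -2.07, adjusted p = 0.00208), with 10.9% of all genes tested called in either direction. The fall was -1.41 and not called without replicate 1 of day 16. Of 4 tested markers 2, *CD68* and *CSF3R*, rose from day 38 to day 45, a step in which 11.2% of all genes tested were called in either direction. Neither was called without replicate 2 of day 38, nor *CSF3R* without replicate 1 of day 38 or of day 45. Fibroblast markers summed to 296.0 and 373.3 CPM on day 31 and to 1257 and 1258 on day 38, when *COL1A2*, a collagen gene, alone was 1151 and 1163 CPM. Of the 4 fibroblast markers *COL1A2* rose and *LUM* fell from day 31 to day 38, with 15% of all genes tested called in either direction. Cardiovascular markers went from 6.24 and 4.77 to 31.3 and 42.2 CPM in that step, in which *ACTA2*, the smooth muscle actin gene, alone of the 4 was called. Trophoblast markers summed to between 3.89 and 11.6 CPM in the 10 libraries. Gastric markers summed to between 5.95 and 20.8 CPM over the series, with *GKN1* at 0 in all libraries. *KRT5*, of basal cells, and *MUC2* had at most 1 count per library before day 31, when *CEACAM5* had at most 9.

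**Figure D4:**
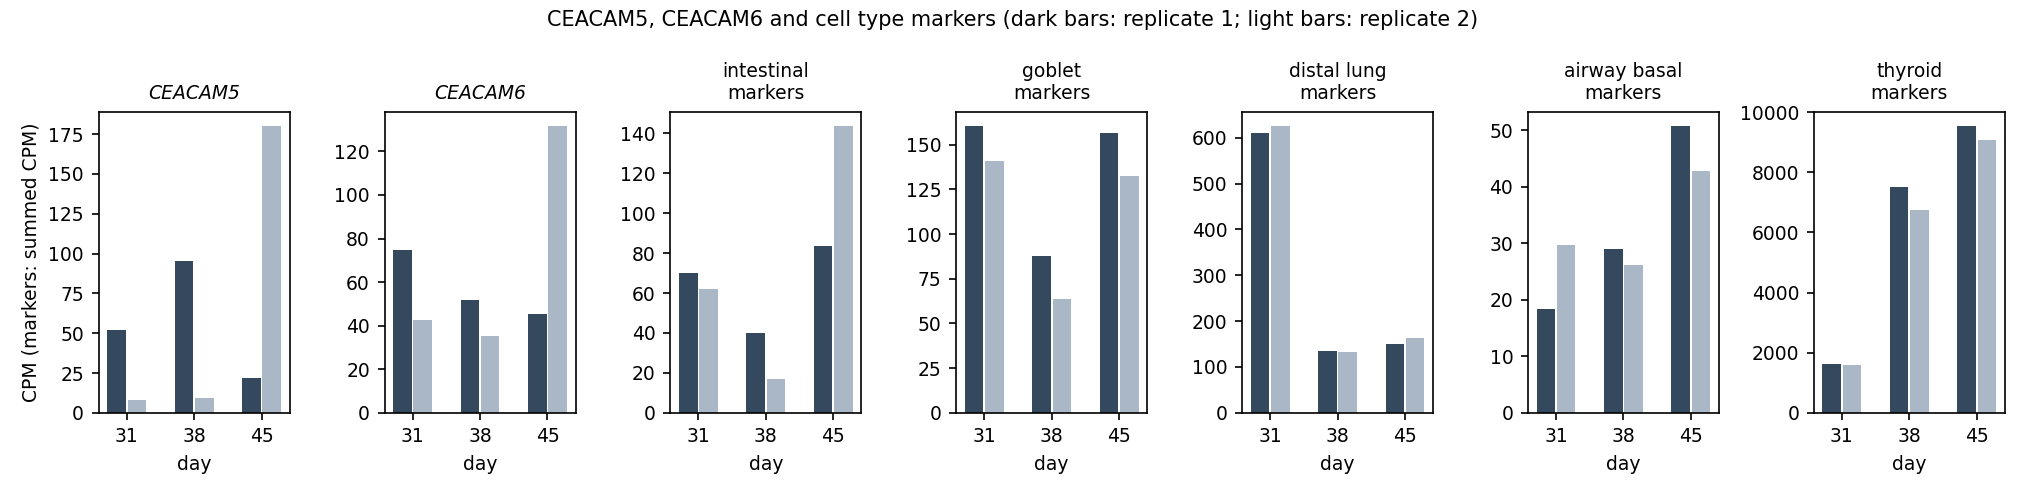
Level of *CEACAM5* and *CEACAM6* and summed level of 5 marker lists (y axis, CPM, linear from 0, a separate scale for each panel) in the 2 libraries of days 31, 38 and 45 (x axis). The higher library changes from replicate 1 to replicate 2 on day 45 for *CEACAM5*, *CEACAM6* and the intestinal sum (83.6 and 143.7 CPM), whereas the goblet sum stays higher in replicate 1, with *MUC5B* at 96.5 and 47.4 CPM on day 45.

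The rest of the CEA family was low. *CEACAM8*, a granulocyte member, had at most 16 counts and *CEACAM21* at most 14, and neither was called in any comparison. *CEACAM4* had no count in any library, *CEACAM3* had 15 counts in a single day 16 library and none elsewhere, and *CEACAM20* had 12 counts in replicate 2 of day 45. Of the pregnancy-specific glycoprotein genes, the placental branch of the family that lies between *CEACAM8* and *CEACAM19* on the chromosome, *PSG3* alone passed the filter on low counts and *PSG1*, *PSG2*, *PSG6*, *PSG7*, *PSG9* and *PSG11* had no count. *PSG5* had 16 counts, all in replicate 2 of day 45. Because the genes are related, fragments could be shared between them. Of 50-base stretches of transcript, 5.24% in *CEACAM5*, 7.22% in *CEACAM6*, 3.29% in *CEACAM1* and 0% in *CEACAM7* occur exactly in another gene. *CEACAM5* and *CEACAM6* shared 0.97% and 1.38% of their stretches with each other. The largest share for both was with ENSG00000267881, a protein-coding gene on the same strand that is not in the count tables. It overlaps *CEACAM5* over 139 exon bases and *CEACAM6* over 138, and held 3.1% and 3.5% of their stretches. *CEACAM1* also overlaps *LIPE-AS1* on the opposite strand over 185 exon bases, and *CEACAM19* overlaps *PVR* on the same strand over 121.

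Genes that act with the CEACAM proteins were then examined in the same fit. Among 12 binding and signalling partners, 6 rose from day 16 to day 45 and none fell, while 12.9% of all genes tested were called higher and 11.7% lower. *ANXA2* and *S100A10*, which together form the annexin A2 complex at the membrane, rose by 1.66 (SE 0.16, adjusted p = 3.08e-10) and 1.30 (SE 0.27, adjusted p = 0.000265) on the log2 scale. The level of *ANXA2* was 74.7 and 108.9 CPM on day 16 and 295.3 and 284.0 CPM on day 45. *EGFR*, a receptor tyrosine kinase that CEACAM1 restrains, rose by 1.16 (SE 0.15, adjusted p = 2.78e-07). *PTPN11*, which codes for SHP-2, rose by 0.77 (SE 0.15, adjusted p = 9.56e-05), whereas *PTPN6* (SHP-1) was 17.0 and 16.1 CPM on day 16 and 14.2 and 9.83 on day 45 and was not called. *CTNNB1* (β-catenin) and *LYN*, a Src-family kinase, also rose (0.33 and 0.77), but the first was not called without replicate 1 of day 16 or either library of day 45, with library size alone as the scaling, or with only the 4 libraries compared. The second was not called without either library of days 16 or 38 or replicate 2 of day 45, with library size alone or upper-quartile factors, or by DESeq2. *ANXA2* and *EGFR* rose both from day 23 to day 31 (0.74 and 0.70) and from day 31 to day 38 (1.22 and 0.71). In the latter step the fibroblast sum went from at most 373.3 to at least 1257 CPM. Of its 4 genes *COL1A2* alone was called higher (154.0 and 210.3 CPM on day 31, 1151 and 1163 on day 38), and *LUM* fell (log2 -1.23). Whether fibroblasts had a part in the change of *ANXA2* and *EGFR* was not tested. The calls of the earlier step were lost without replicate 1 of day 23 or replicate 2 of day 31, and that of *ANXA2* also without replicate 1 of day 31. Their 2 libraries stayed within 1.12-fold of each other from day 31 on.

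Of 9 transcription factors often linked to the CEACAM promoters or to the intestinal programme, *SOX9* and *HNF4A* rose and none fell from day 23 to day 31, the step at which *CEACAM5* passed from at most 1.03 CPM to at least 7.80 CPM. In this step 1.58% of all genes tested were called higher and 0.666% lower, and the step was singled out because *CEACAM5* changed there. *SOX9*, an endoderm progenitor factor, was 16.4 and 17.6 CPM on day 23 and 55.7 and 60.5 on day 31 (log2 1.77, SE 0.22, adjusted p = 1.61e-06). It had also risen from day 16 to day 23, from 9.89 and 8.99 CPM (log2 0.85, SE 0.23, adjusted p = 0.0132), a call lost without replicate 2 of day 16 or of day 23 and with the 4 libraries compared alone. *HNF4A*, a factor of liver and intestinal epithelium, had no count on day 23 and was 9.01 and 6.05 CPM on day 31, at least 22.3-fold higher with day 23 set to 3 counts per library (adjusted p = 2.66e-05). It was 10.0 and 9.43 CPM on day 38 and 10.0 and 6.33 on day 45. *IRF1*, the interferon-responsive factor, fell from day 16 to day 23 (-0.89, SE 0.25, adjusted p = 0.0154) and rose from day 38 to day 45 (1.10, SE 0.26, adjusted p = 0.00282). The fall was not called without replicate 1 of day 16 or of day 23, nor the rise without replicate 1 of day 38. *USF1* and *USF2*, whose products bind the E-box, were between 13.1 and 22.4 CPM and between 41.9 and 67.2 CPM in the 10 libraries and were not called in any comparison. *SP1*, *SMAD3* and *CDX1* were not called either.

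The genes for the enzymes that build and attach the GPI anchor were examined next. From day 16 to day 45, 3 of 27 tested genes rose (*PIGW*, *PIGZ* and *DPM1*) and 2 fell (*PIGG* and *PGAP1*), with a median log2 change of 0.10 against 0 over all genes and with 12.9% of all genes tested called higher and 11.7% lower. The calls of *PIGW* and *PGAP1* were lost without replicate 1 and replicate 2 of day 16, respectively, and that of *PIGW* also with only the 4 libraries compared. *PIGA*, a subunit of the enzyme that makes the first step, fell from day 16 to day 23 (-0.97, SE 0.17, adjusted p = 7.94e-05) and was 94.5 and 90.0 CPM on day 16 and 92.9 and 88.6 on day 45. Among 13 tested genes of other GPI-anchored surface proteins, 5 rose from day 16 to day 45 and 2 fell, beside the same 12.9% and 11.7% of all genes tested. These include *PRSS8* (0.66), not called without replicate 2 of day 16, and *CD24* (-0.43), not called without replicate 1 of day 45. *LY6E* rose by 1.46 (SE 0.28, adjusted p = 0.000134), *MSLN* (mesothelin) by 2.68 (SE 0.66, adjusted p = 0.00219) and *CD59*, a complement inhibitor, by 0.64 (SE 0.17, adjusted p = 0.00331). The change of *MSLN* was 2.05 without replicate 1 of day 45. *GPC3* (glypican-3) fell by 1.24 on the log2 scale (SE 0.21, adjusted p = 2.27e-05). *CD55*, the other anchored complement inhibitor, fell to day 23 (-1.05, SE 0.16) and rose from day 38 to day 45 (1.18, SE 0.16, adjusted p = 1.3e-06).

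Of 16 other adhesion genes of epithelia, 4 rose from day 16 to day 45 and 4 fell, against 12.9% called higher and 11.7% lower over all genes tested. *ICAM1*, a ligand of leukocyte integrins, had the largest of these rises, from 1.40 and 3.45 CPM to 125.6 and 108.9 CPM (log2 5.58, SE 0.37, adjusted p = 2.09e-14). Its log2 change was 5.07 without replicate 1 of day 16 and 6.38 without replicate 2. *ALCAM* fell from 924.0 and 1117 CPM to 205.3 and 197.4 CPM (-2.34, SE 0.12, adjusted p = 7.1e-17) and *CDH3* (P-cadherin) fell by 1.46 on the log2 scale (SE 0.16, adjusted p = 9.28e-09). *CDH1* (E-cadherin) was 629.4 and 494.2 CPM on day 16 and 681.3 and 708.5 on day 45, and *EPCAM* was 316.8 and 442.8 and then 312.1 and 380.6 CPM; neither was called in this comparison, nor was the desmosomal gene *DSP*.

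**Figure D5:**
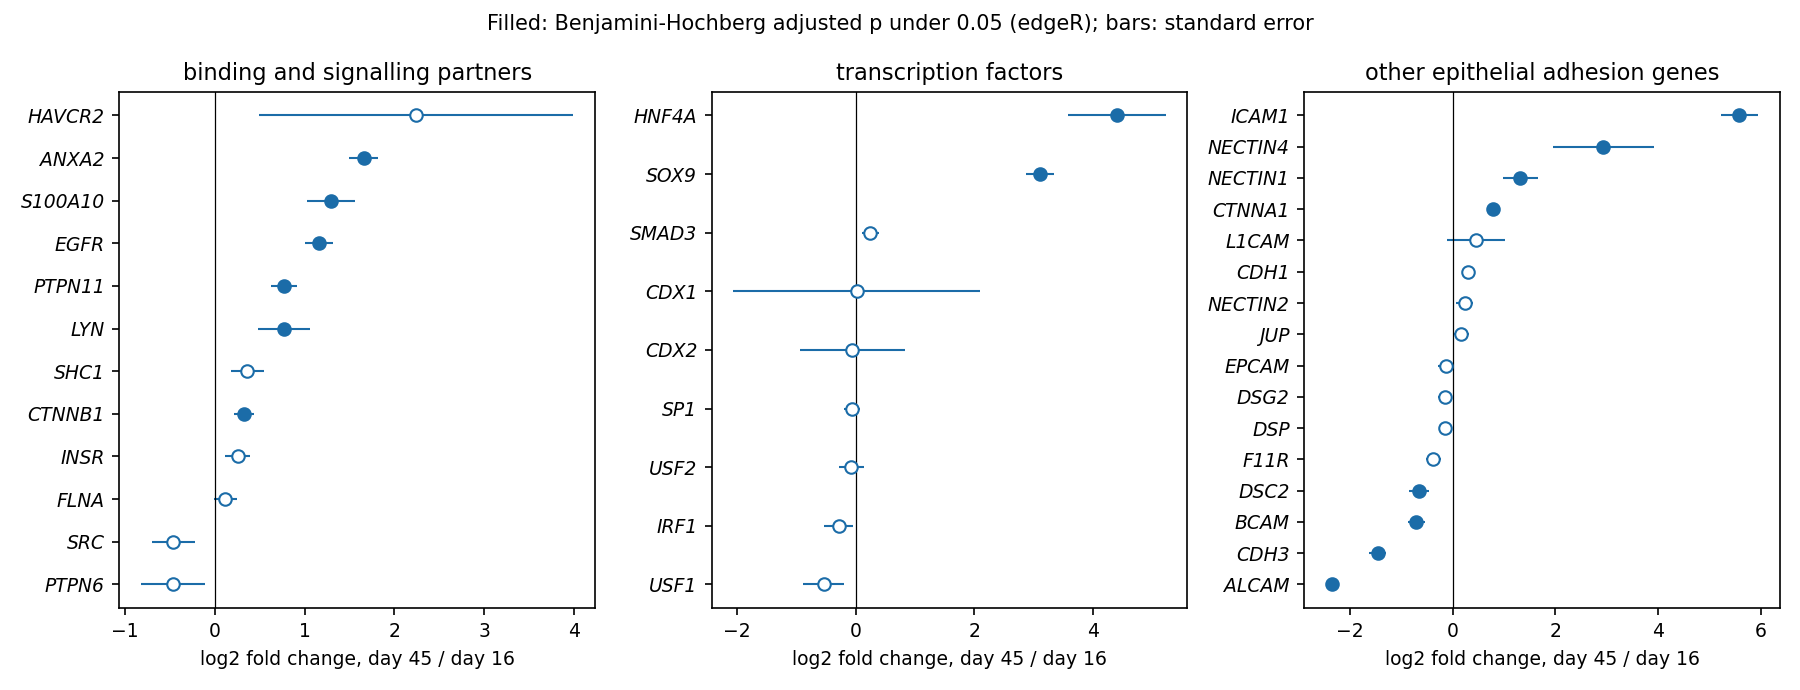
Fitted log2 fold change from day 16 to day 45 (x axis) with its standard error for tested genes of 3 lists: 12 CEACAM partners, 9 transcription factors and 16 other epithelial adhesion genes (y axis, ordered by change within a list). Filled points passed an adjusted p of 0.05 in the edgeR test; *ICAM1* stands at 5.58 and *ALCAM* at -2.34, while *CDH1*, *EPCAM* and *DSP* are open points near 0.

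Genes with the most similar profile were ranked for each member by Pearson's r of log2 CPM over the 10 libraries, among 17382 genes with a mean of at least 1 CPM. These correlations are a description over libraries that share the same days and sequencing depths. For *CEACAM5* they were *EMP3* (r = 0.976, Spearman's rho 0.927), *FAM174B* (0.963, rho 0.952), *MCTP2* (0.959, rho 0.939), *FXYD3* (0.954, rho 0.952) and *TSPAN8* (0.952, rho 0.900). *TSPAN8*, a tetraspanin of digestive epithelium, was 14.0 and 7.21 CPM on day 31, 6.91 and 1.75 on day 38, and 9.001 and 52.2 on day 45, so that its higher library was that of *CEACAM5* on each of these days. *EMP3*, an epithelial membrane protein gene, had the same order of libraries on a smaller scale, 27.3 and 20.3, 33.4 and 23.4, and 22.9 and 39.8 CPM. For *CEACAM6* the genes were *PIM3* (r = 0.978), *VMP1* (0.975), *COL12A1* (0.971), *CD9* (0.970) and *CHI3L1* (0.967). For *CEACAM7* they were *HSPA9* (0.969), *KLF10* (0.963), *SPATS2L* (0.958), *DMBT1* (0.957) and *OAS1* (0.955). For *CEACAM1* they were *LOC145474* (0.915), *ST6GAL1* (0.901), *TRAFD1* (0.894), *JOSD1* (0.885) and *ACP3* (0.877), and for *CEACAM19* *SNORA71B* (0.960), *DLL3* (0.951), *GCNT4* (0.939), *SLC39A8* (0.933) and *NEURL2* (0.933). No gene stood on more than 1 of these lists.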

How the data were processed

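RNA was extracted from NKX2-1GFP+ cells sorted at 5 time points, and libraries were made with a low-input kit and sequenced in pairs of reads. Per the labels and methods, the authors trimmed reads with Trimmomatic, aligned them to GRCh38 (the notes name GRCh38.p13) with HISAT2 and counted them per gene with HTSeq. The deposited values are raw counts for 28265 gene symbols in each library; versions, strand setting and the treatment of reads with several alignments are not given in the sources used here. Replicates are described as biological, and the labels name no shared culture.

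Counts were analysed with edgeR 4.0.16 (limma 3.58.1, R 4.3.3): a gene was tested if 2 or more libraries held 5 or more counts of it (21014), with TMM scaling, quasi-likelihood test over all 10 libraries with day as the factor (5 residual degrees of freedom), and Benjamini-Hochberg adjustment over all genes tested, with a threshold of 0.05. Successive days, and day 45 with day 16, were compared. All 5 CEACAM genes passed the filter. Log2 CPM used a prior count of 2, and SDs and n refer to libraries. Folds of the CEACAM genes against a day with 1 to 3 counts were formed from pooled counts scaled by library size. Their other folds and the lower bounds were formed from mean CPM. A level of 0 allows up to 3 counts, between 0.31 and 0.44 CPM per library; this and the counting intervals (exact, conditional binomial, 95%) cover counting error only. Exon lengths came from GENCODE 44, in which 25755 symbols were found. On simulated data for day 38 against day 31 (21014 genes, 200 changed), 38% of genes changed by a log2 of 1 and 60% of those changed by 2 were recovered, and 4 of 102 calls were false.

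The CEACAM genes and the gene lists were chosen with earlier results of these data known. Named genes were the CEACAM genes, genes of the fixed lists and, for each CEACAM gene, the 5 genes with the highest r. Alternatives were DESeq2 1.42.0, other scalings and filters, the 4 libraries of a comparison alone, a replicate block and leaving out each library. The closing observations were added after the values were seen. Libraries kept on cAMP to the later days were not analysed here. One listed gene is not reported here and was left out of its list's counts.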

Additional observations from a re-analysis of the deposited data

How the results depend on the processing

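The counts of genes called between days stayed within 1.5 times of the reported ones in 74 of 85 alternative values. From day 31 against day 23 the 473 calls became 743 with only the 4 libraries compared. With single libraries left out, the calls ranged from 1401 to 2477 (day 23 against day 16, reported 2296), from 214 to 679 (day 31 against day 23), from 1818 to 3679 (day 38 against day 31, reported 3160), from 1216 to 2866 (day 45 against day 38, reported 2353) and from 4073 to 5249 (day 45 against day 16, reported 5175). A day left with 1 library was assumed to vary like the others. Scaling by library size alone moved the median of all genes by -0.20 from day 31 to day 38 and the share of higher calls there from 58.5% to 33.3%, and it turned the log2 change of *CEACAM19* from 0.08 to -0.15; the cause was not tested.

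Of 306 alternative log2 fold changes of the CEACAM genes, 288 moved by less than the SD between libraries. That SD comes from the same 2 libraries of each day, so leaving either library out could hardly move a value beyond it. The share is therefore no measure of stability, and the ranges are given instead. With single libraries left out, *CEACAM5* ranged from 3.28 to 6.01 (day 31 against day 23), from -1.72 to 2.73 (day 38 against day 31) and from -1.24 to 3.48 (day 45 against day 38). *CEACAM6* ranged from 3.22 to 4.46, from -0.79 to 0.009 and from 0.063 to 1.60 in the same comparisons. *CEACAM7* ranged from -0.33 to 1.67 (day 38 against day 31) and from 1.81 to 4.34 (day 45 against day 38). *CEACAM1* ranged from 1.24 to 1.72 (day 23 against day 16), from 0.10 to 0.73 (day 31 against day 23), from -2.46 to -0.27 (day 38 against day 31), from 0.59 to 2.77 (day 45 against day 38) and from 1.61 to 2.72 (day 45 against day 16). *CEACAM19* ranged from -3.40 to -1.10, from 1.08 to 3.38, from -0.13 to 0.25, from 0.081 to 1.18 and from 0.14 to 1.23 in these 5 comparisons. The gaps between libraries moved by less than the SD in all 60 alternative values (other scalings and a prior count of 0.5). This SD was derived from the gap itself. For wide gaps the outcome was thus close to fixed in advance, and nothing is read from it. Depth limits *CEACAM7* before day 45 and *CEACAM5* before day 31, where libraries had at most 17 counts.

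No pairing of the libraries by replicate number was seen over all genes: deviations of same-numbered libraries from their day means correlated between -0.035 and 0.027 over 17387 genes. A shared effect on few genes would not show in this measure. With the replicate block, 2703, 678, 3472, 2691 and 5460 genes were called in the 5 comparisons, against 2296, 473, 3160, 2353 and 5175 without it.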

Other observations

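Genes whose libraries differed as those of *CEACAM5* did were looked for after the values were seen, and the outcome is given as values with no test. Among 13092 genes with a mean of at least 5 CPM over days 31, 38 and 45, 16 had libraries that differed by at least 1 on the log2 scale on all 3 days. In 5 of them replicate 1 was higher on days 31 and 38 and replicate 2 on day 45. They were *CEACAM5* itself, *MUC17*, *DMBT1*, *FABP1* and *MGAM2*. *MUC17* codes for a membrane mucin of the intestinal brush border. It had 15 and 0 counts on day 31, 155 and 2 on day 38, and 77 and 346 on day 45. *DMBT1*, a scavenger receptor gene of mucosal epithelia, was 10.0 and 3.14 CPM, 50.3 and 5.94 CPM, and 134.0 and 344.8 CPM on these days. *MGAM2*, a relative of the brush border maltase-glucoamylase, was 8.496 and 2.21, 7.02 and 3.26, and 9.73 and 21.6 CPM. A further 5 of the 16 genes had replicate 2 higher on day 31, replicate 1 on day 38 and replicate 2 on day 45, so the number of genes was not particular to the pattern of *CEACAM5*.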
